A study of Homo sapiens with 4 samples.

Results

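The drug efflux ABC transporters were taken as 7 genes, ABCB1, ABCC1, ABCC2, ABCC3, ABCC4, ABCC5 and ABCG2, and every probe set annotated to exactly 1 gene and to one of these symbols was read. This gave 18 probe sets of the 54675 on the array: 5 for ABCC3, 4 for ABCC4, 3 for ABCC5, 2 each for ABCB1 and ABCC1, and 1 each for ABCC2 and ABCG2. A further probe set, annotated to both ABCB1 and its neighbour ABCB4, was kept apart. RNA came from 4 modified human colorectal cancer cell lines, with 1 Affymetrix array each. The array labelled HCT116-CDX1 and the HCT116-Vec array were derived from HCT116, a colorectal carcinoma line. The LS174T-siCDX1 and LS174T-siVec arrays were derived from LS174T, a mucin-producing colon adenocarcinoma line. The names were read as CDX1 introduced against a vector in HCT116, and CDX1 reduced by a small interfering construct against a vector in LS174T. The constructs, their promoters, the number of clones and the culture conditions are not stated in the labels. CDX1 is an intestinal homeobox factor, and the study used the pairs to ask whether it regulates cytokeratin 20.

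ABC transporters use the energy of ATP to move substrates across membranes, and the members of this set carry drugs, conjugates and xenobiotics out of the cell. In the intestine P-glycoprotein (ABCB1), MRP2 (ABCC2) and BCRP (ABCG2) sit in the apical membrane and return drugs to the lumen. MRP3 (ABCC3) and MRP1 (ABCC1) sit basolaterally and pass conjugates toward the blood, while MRP4 (ABCC4) and MRP5 (ABCC5) export cyclic nucleotides and nucleotide analogues. All are known for the resistance of tumour cells to chemotherapy. ABCB1 has been described as a target of the related factor CDX2, and its gene can be read from an upstream and a downstream promoter.

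The promoter windows of the members that differed at least 2-fold within a pair are shown because the pairs are set apart, by label, by a homeobox factor whose binding core is short and rich in A and T. RefSeq windows (build GRCh38.p14, 250 bases before to 50 after each start site) matched 5 of the 7 members, with 10 start sites in all; ABCC1 and ABCC3 did not match. The upstream ABCB1 window lay at chr7:87713246-87713545 on the minus strand, the downstream one at chr7:87600835-87601134 on the minus strand, and the ABCC2 window at chr10:99782390-99782689 on the plus strand. Capitals mark the CDX core TTTAT, on either strand, in the ABCB1 upstream and ABCC2 lines, and the CCAAT box, on either strand, in the ABCB1 downstream line.
ABCB1 upstream: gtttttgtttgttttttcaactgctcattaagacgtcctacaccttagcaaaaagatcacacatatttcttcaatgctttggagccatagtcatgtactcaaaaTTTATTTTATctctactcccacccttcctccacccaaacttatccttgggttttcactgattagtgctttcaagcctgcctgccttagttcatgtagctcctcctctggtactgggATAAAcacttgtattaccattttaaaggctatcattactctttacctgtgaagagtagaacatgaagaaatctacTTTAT
ABCB1 downstream: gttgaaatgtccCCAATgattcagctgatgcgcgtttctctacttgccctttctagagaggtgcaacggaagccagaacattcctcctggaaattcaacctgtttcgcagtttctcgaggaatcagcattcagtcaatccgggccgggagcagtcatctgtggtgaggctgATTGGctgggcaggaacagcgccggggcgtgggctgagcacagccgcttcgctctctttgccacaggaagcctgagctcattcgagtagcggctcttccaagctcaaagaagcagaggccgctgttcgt
ABCC2: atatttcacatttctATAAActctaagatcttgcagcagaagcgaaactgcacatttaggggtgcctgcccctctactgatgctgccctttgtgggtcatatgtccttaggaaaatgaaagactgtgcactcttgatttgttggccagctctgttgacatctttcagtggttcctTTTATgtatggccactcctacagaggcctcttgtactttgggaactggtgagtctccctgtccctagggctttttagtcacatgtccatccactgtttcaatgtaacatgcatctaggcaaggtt

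The upstream ABCB1 window held 4 matches to TTTAT, a pair of them side by side at -146 and -141, 1 on the other strand at -30, and 1 at 46, positions being those of the first base counted from the start site. The downstream ABCB1 window held 0 matches to TTTAT and 2 to CCAAT, at -238 and, on the other strand, at -79. The ABCC2 window held TTTAT on the gene's strand at -75 and on the other strand at -235. Among the 10 windows of the members, 3 held TTTAT, the upstream ABCB1 window, the ABCC2 window and the ABCC5 window with 1 match. Of 35116 windows of 300 bases in the same table, 34.9% held TTTAT and 34.6% held CCAAT. The GC box GGGCGG (45.0% of windows) and the antioxidant response cores TGACNNNGC (13.3%) and TGAGNNNGC (18.3%) had 0 matches in the upstream ABCB1, downstream ABCB1 and ABCC2 windows shown, and the aryl hydrocarbon receptor core GCGTG (36.5%) had 1 there, in the downstream ABCB1 window at -53. A match is a description of the letters, since the arrays measured neither binding nor the start site in use.

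**Figure D1:**
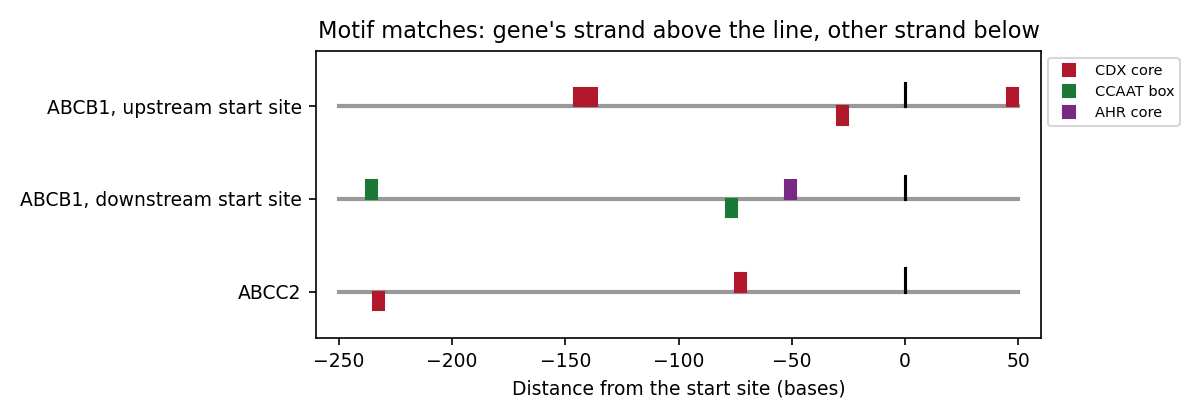
Matches to motif cores in the promoter windows of ABCB1 and ABCC2, by distance from the start site in bases; blocks above a line are on the gene's strand and blocks below it on the other strand. The CDX core falls in the upstream ABCB1 window (4 matches) and the ABCC2 window (2 matches), and the downstream ABCB1 window holds 0.

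Levels are given as log2 values from RMA, on which a difference of 1 is 2-fold. A probe set counted as measured in a comparison if its brighter array read at least 6, and a change, rise or fall means a measured difference of at least 2-fold. Because each group has 1 array, differences within pairs have no replicate check and carry no p-value, and their precision is limited by the number of arrays. The levels of different probe sets cannot be set against each other, since probes differ in brightness. Array medians were 7.06 on the array labelled HCT116-CDX1, 7.04 on HCT116-Vec, 7.06 on LS174T-siCDX1 and 7.04 on LS174T-siVec. The 18 spike-in probe sets differed with a standard deviation of 0.12 in the HCT116 pair, 0.07 in the LS174T pair and 0.10 between the vector arrays. CDX1 read 8.24 on the array labelled HCT116-CDX1 against 8.21 on HCT116-Vec, so its probe set shows no rise, and directions in the HCT116 pair depend on the label alone. KRT20, the gene of cytokeratin 20, read 9.38 against 6.36 in the same pair. In LS174T-siCDX1 CDX1 read 9.06 against 10.46 in LS174T-siVec, and KRT20 read 5.45 against 8.15. Of 12 colorectal epithelial markers, 12 were at or above 6 on 3 arrays and 11 on LS174T-siCDX1, where KRT20 was the exception. The same floor was passed by 5 of 6 fibroblast markers on every array, so a level of 6 alone does not show expression. Of 4 leukocyte markers read, 3 were at or above 6 on each LS174T array and 2 on each HCT116 array; LYZ, also made by epithelial secretory cells, read 11.74 on LS174T-siCDX1 and 11.25 on LS174T-siVec, against 5.21 and 4.97 in HCT116. Summed leukocyte marker levels were 32.5 and 31.3 in LS174T and 25.3 and 25.1 in HCT116, a gap that lies in LYZ. LYZ was 6.28 higher in LS174T-siVec than in HCT116-Vec, while PTPRC differed by -0.11 and CD3E by 0.08. CD14 lay under 6 on every array. The part of other cell types in the line differences below was not tested.

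ABCB1 was the member with the widest range. The probe set 209993_at read 6.93 on the array labelled HCT116-CDX1 and 6.75 on HCT116-Vec, and 9.67 on LS174T-siCDX1 and 11.59 on LS174T-siVec. Both LS174T arrays were far above both HCT116 arrays, and within LS174T the siCDX1 array was the lower one. ABCB1 fell by 1.92 in LS174T-siCDX1, which is 3.80-fold, and 96 of the 40584 measured probe sets (0.237%) were at least as much lower. The second ABCB1 probe set, 243951_at, read 6.66 on the array labelled HCT116-CDX1 and 6.79 on HCT116-Vec, and 8.32 on LS174T-siCDX1 and 9.76 on LS174T-siVec. It gave the same order in LS174T, and its fall of 1.44 was 2.72-fold. In the HCT116 pair the 2 probe sets differed by 0.18 and -0.13, opposite in sign and both under 2-fold. Each of these HCT116 readings lay under its array median, so expression of ABCB1 there is not shown. In bulk RNA, fewer expressing cells and less RNA per cell cannot be told apart. Of the 12 epithelial markers, 2 rose on the array labelled HCT116-CDX1, where 0.916% of all measured genes rose. In LS174T-siCDX1 5 fell and 0 rose, where 1.25% and 0.598% of all measured genes did so. The part of these markers in the ABCB1 difference was not tested.

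The probe set shared by ABCB1 and ABCB4 followed the ABCB1 readings. It read 6.91 on the array labelled HCT116-CDX1 and 6.69 on HCT116-Vec, and 9.13 on LS174T-siCDX1 and 11.03 on LS174T-siVec, a difference of -1.90 in the LS174T pair. ABCB4, which encodes the phosphatidylcholine floppase of bile canaliculi, read 6.97 on LS174T-siCDX1 and 6.94 on LS174T-siVec in its own probe set, a difference of 0.03. The fall seen in the shared probe set was not seen in the reading of ABCB4 alone. Both ABCB4 readings lay under their array medians of 7.06 and 7.04, so expression of ABCB4 is not shown there. Its part in the fall of the shared probe set was not tested.

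ABCC2, which exports glutathione and glucuronide conjugates, was read by 1 probe set, 206155_at. It read 8.96 on the array labelled HCT116-CDX1 and 10.13 on HCT116-Vec, and 6.61 on LS174T-siCDX1 and 7.09 on LS174T-siVec. The HCT116 arrays were the higher ones, and in each pair the array with changed CDX1 by label lay below its vector array. ABCC2 fell by 1.17 on the array labelled HCT116-CDX1, which is 2.26-fold, and 155 of 40507 measured probe sets (0.383%) were at least as much lower. In LS174T-siCDX1 the difference was -0.48, or 1.39-fold. There the reading of 6.61 lay under the array median of 7.06, and that of 7.09 on LS174T-siVec lay near its median of 7.04.

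ABCG2, the half-size transporter BCRP that works as a dimer, was also read by 1 probe set, 209735_at. It read 7.34 on the array labelled HCT116-CDX1 and 7.89 on HCT116-Vec, a difference of -0.55. On LS174T-siCDX1 it read 5.81 and on LS174T-siVec 5.16, both under the floor, so ABCG2 was not measured in the LS174T pair. The reading of 0.66 between those arrays has no clear signal behind it.

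**Figure D2:**
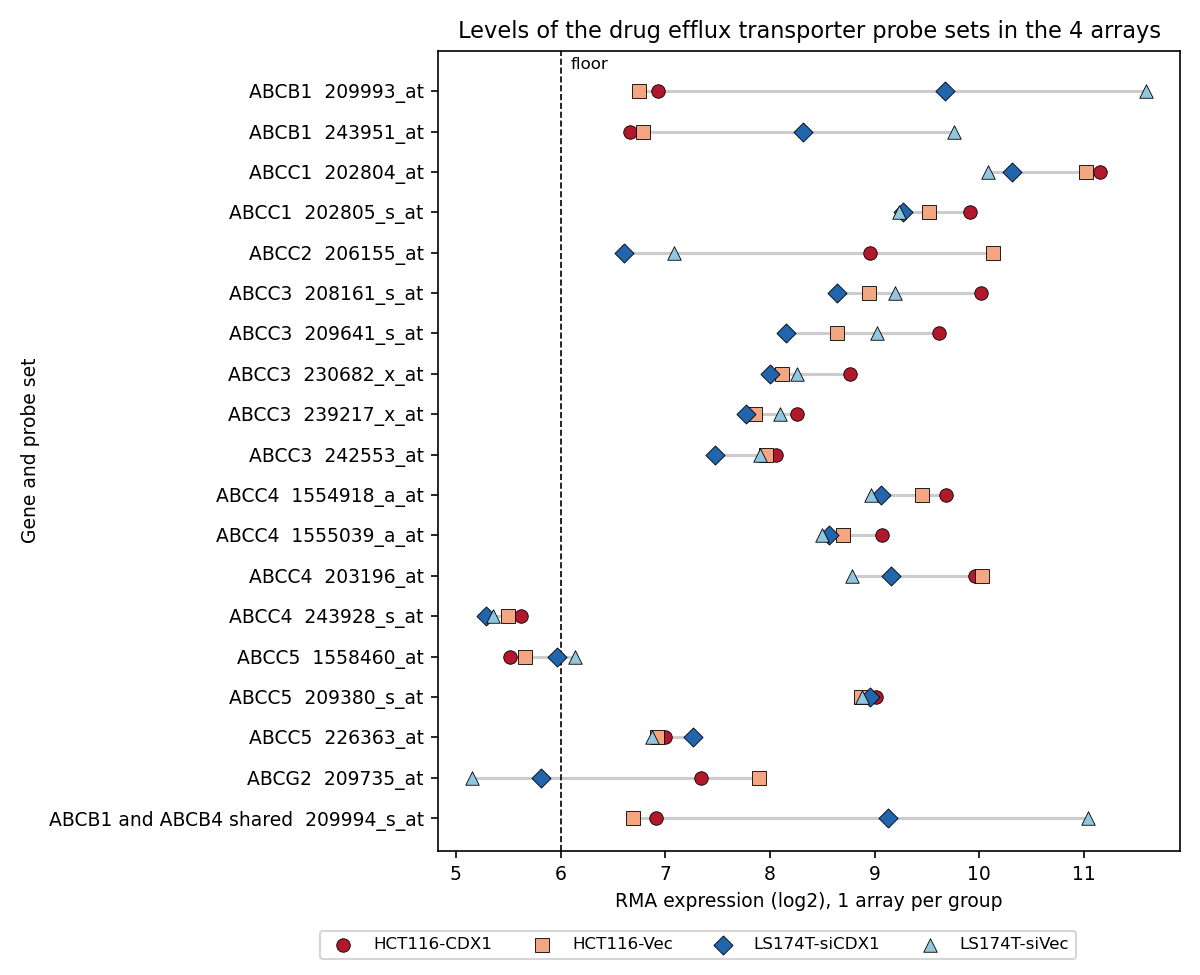
RMA expression (log2) of each probe set on the 4 arrays, 1 array per group; the grey line spans the 4 arrays and the dashed line is the floor of 6. ABCB1 lies highest on LS174T-siVec (11.59 for 209993_at), ABCC2 highest on HCT116-Vec (10.13), and ABCG2 under the floor on both LS174T arrays.

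ABCC3 was the member whose pairs ran in opposite senses on every probe set. This carrier of bile acid and glucuronide conjugates read 10.01 on the array labelled HCT116-CDX1 and 8.94 on HCT116-Vec in its brightest probe set, 208161_s_at, and 8.64 on LS174T-siCDX1 and 9.20 on LS174T-siVec. The array labelled HCT116-CDX1 was the highest and LS174T-siCDX1 the lowest of the 4, with the vector arrays between them. The difference was 1.07 in the HCT116 pair, which is 2.10-fold, and -0.56 in the LS174T pair, which is 1.47-fold. The other ABCC3 probe sets ran the same way with smaller rises.

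The second-brightest ABCC3 probe set, 209641_s_at, read 9.62 on the array labelled HCT116-CDX1 and 8.64 on HCT116-Vec, and 8.16 on LS174T-siCDX1 and 9.02 on LS174T-siVec, differences of 0.98 and -0.87. The 3 others differed by 0.66 (230682_x_at), 0.40 (239217_x_at) and 0.10 (242553_at) in HCT116, and by -0.26, -0.33 and -0.43 in LS174T. All 5 were thus above 0 in the HCT116 pair and below 0 in the LS174T pair, and 1 of them passed 2-fold. As the mean of its 5 probe sets ABCC3 differed by 0.64 in HCT116 and by -0.49 in LS174T, and with probe sets named _s_at or _x_at left out the HCT116 difference was 0.10, so the 2-fold call for the gene rests on its brightest probe set. Probe sets of 1 gene share their RNA and are not replicates.

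ABCC1, ABCC4 and ABCC5 differed by less than 2-fold in both pairs. ABCC1, the first MRP to be described, read 11.16 on the array labelled HCT116-CDX1 and 11.02 on HCT116-Vec, and 10.31 on LS174T-siCDX1 and 10.08 on LS174T-siVec, in 202804_at. Its 2 probe sets differed by 0.13 and 0.39 in HCT116 and by 0.23 and 0.04 in LS174T. The HCT116 arrays were the higher ones in both. ABCC4 read 9.96 on the array labelled HCT116-CDX1 and 10.03 on HCT116-Vec, and 9.16 on LS174T-siCDX1 and 8.79 on LS174T-siVec, in 203196_at. Of its 4 probe sets 3 were measured, with differences from -0.07 to 0.37 in HCT116 and from 0.07 to 0.37 in LS174T, and 243928_s_at lay under 6 on all arrays. ABCC5 was the flattest member over the 4 arrays by brightest probe sets only. In 209380_s_at it read 9.01 on the array labelled HCT116-CDX1 and 8.87 on HCT116-Vec, and 8.95 on LS174T-siCDX1 and 8.88 on LS174T-siVec, and its measured probe sets differed by 0.08 to 0.14 in HCT116 and by -0.17 to 0.39 in LS174T.

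**Figure D3:**
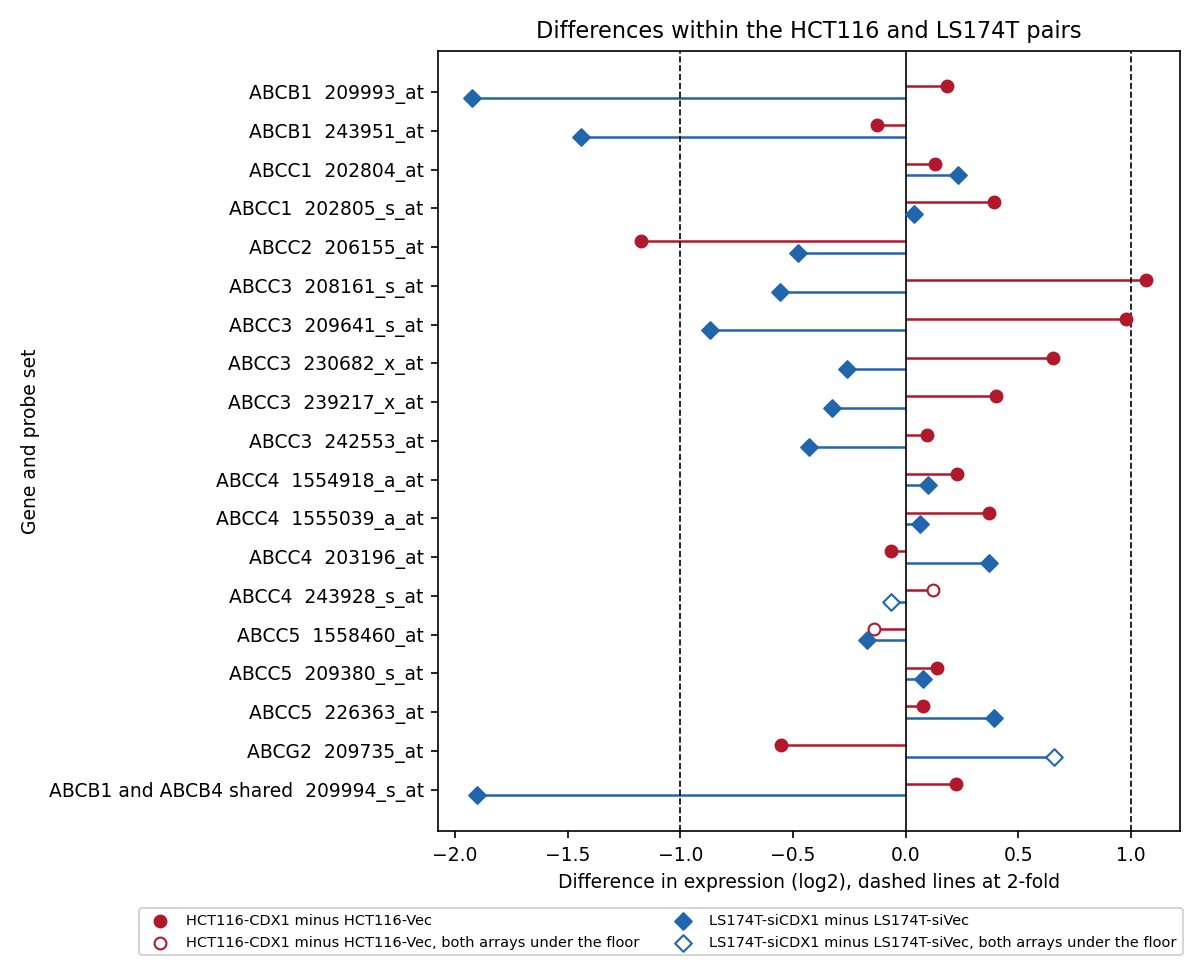
Differences in expression (log2) within the HCT116 pair (circles) and the LS174T pair (diamonds) for each probe set; open symbols have both arrays under the floor and dashed lines mark 2-fold. The ABCB1 probe sets pass 2-fold in LS174T, at -1.92 and -1.44, and ABCC2 at -1.17 and one ABCC3 probe set at 1.07 do so in HCT116.

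Counted over members, the 2-fold changes were few in each pair. By brightest probe sets, ABCC3 rose and ABCC2 fell among the 7 measured members on the array labelled HCT116-CDX1, where 1.89% of 16914 measured genes changed, 0.916% higher and 0.97% lower. Over probe sets the count was 1 higher and 1 lower of 16 measured, where 1.58% of 40507 changed, 0.795% higher and 0.788% lower. In LS174T-siCDX1, ABCB1 fell and 0 rose among the 6 measured members, where 1.85% of 16896 measured genes changed, 0.598% higher and 1.25% lower. Over probe sets 2 of 16 measured fell, both of ABCB1, and 0 rose, where 1.5% of 40584 changed, 0.493% higher and 1% lower. The median difference of the members was 0.13 in HCT116 and -0.20 in LS174T, against -0.01 over all measured genes in each pair.

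**Figure D4:**
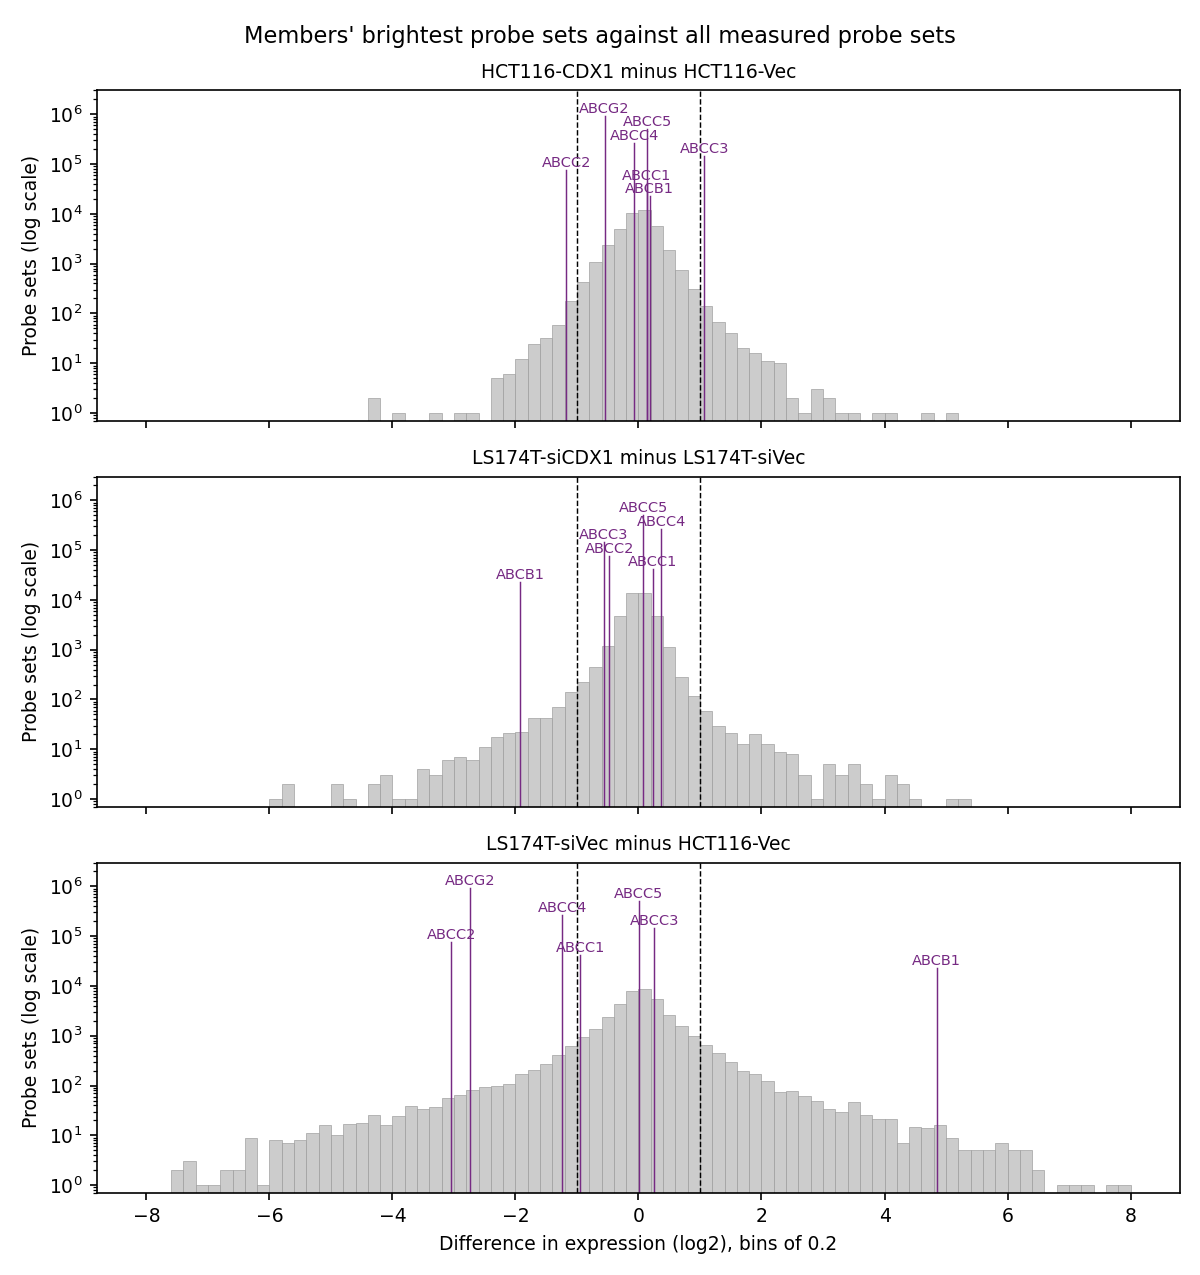
Number of measured probe sets (log scale) by difference in expression (log2, bins of 0.2) in the 3 comparisons, with the brightest probe set of each measured member marked; dashed lines are at 2-fold. ABCB1 lies at -1.92 in the LS174T pair and at 4.85 between the vector arrays, and ABCC2 at -1.17 in the HCT116 pair.

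LS174T-siVec was set against HCT116-Vec to describe the lines before CDX1 was changed; this comparison shares its arrays with both pairs. Of the members, the 3 apical pumps had the largest differences. ABCB1 was 4.85 higher in LS174T-siVec, which is 28.8-fold as read, and 63 of 41097 measured probe sets (0.153%) were at least as much higher. Its HCT116-Vec reading of 6.75 lay under the array median of 7.04. Expression there is not shown, and the fold has no firm denominator. ABCC2 was lower in LS174T-siVec, with a difference of -3.04, or 8.25-fold as read. Its LS174T-siVec reading of 7.09 lay near the array median of 7.04. ABCG2 differed by -2.74 as read, or 6.68-fold, and was at least 3.72-fold lower against the floor of 6. ABCC4 differed by -1.24 in 203196_at, while its other 2 measured probe sets differed by -0.49 and -0.20. ABCC1 differed by -0.94, ABCC3 by 0.26 and ABCC5 by 0.00 in their brightest probe sets. In all 1 of 7 members was at least 2-fold higher and 3 were lower, where 13.4% of 17043 measured genes differed 2-fold, 6.03% higher and 7.33% lower. Over probe sets 2 of 17 measured were higher and 3 lower, where 11.8% of 41097 differed, 5.87% higher and 5.97% lower.

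A fit over all 4 arrays put the line difference beside a moderated spread. The model (limma, moderated statistics with Benjamini-Hochberg adjustment over all 54675 probe sets) had the cell line and the CDX1 label as terms and 1 residual degree of freedom. The arrays of a line are differently modified cells and not replicates. With both terms fitted, the spread left for a probe set is only how far its CDX1 label difference differs between the lines. Moderation blends this with the spread over all probe sets (3.836 prior degrees of freedom). The SE and p below therefore do not measure variation between replicates. Of the 18 probe sets 6 passed an adjusted p of 0.05 for LS174T against HCT116, 2 higher and 4 lower, against a background of 12.7% of all probe sets. ABCB1 averaged 10.63 in LS174T and 6.84 in HCT116 in 209993_at, a difference of 3.79 ± 0.42 (SE) with an adjusted p of 0.00847. Its second probe set differed by 2.32 ± 0.38, with an adjusted p of 0.0238. ABCG2 averaged 5.48 as read in LS174T, where both arrays lay under the floor, and 7.62 in HCT116, so only a bound of at least 3.07-fold lower in LS174T can be given beside the adjusted p of 0.0021. ABCC2 averaged 6.85 in LS174T and 9.54 in HCT116, a difference of -2.70 ± 0.40 with an adjusted p of 0.0181. ABCC4 in 203196_at (-1.02, adjusted p 0.0178) and ABCC1 in 202804_at (-0.89, adjusted p 0.0282) were the others, and the remaining probe sets of ABCC1 and ABCC4 did not pass. Whichever array was left out of a fit on the line alone, ABCB1 in 209993_at differed by 2.83 to 4.75. ABCG2 differed by -2.46 to -1.80 as read in those fits, with its LS174T arrays under the floor. In such fits ABCC2 passed without either HCT116 array but had adjusted p of 0.0737 without LS174T-siCDX1 and 0.0544 without LS174T-siVec. ABCB1 in 243951_at had adjusted p of 0.0843 without the array labelled HCT116-CDX1 and 0.0698 without HCT116-Vec, and ABCC1 and ABCC4 did not pass without LS174T-siVec (0.0854 and 0.0675). The count of members' probe sets was 3 without LS174T-siVec, against 6 with all arrays. None of the 18 passed for the CDX1 label term, where limma called 0 of 54675 (0%) and 1886 had an unadjusted p under 0.05. The 5 members' probe sets among those 1886 were 4 of ABCC3, the largest difference being 0.92 ± 0.13 in 209641_s_at (adjusted p 1.0), and that of ABCG2 at -0.61, whose LS174T arrays lay under the floor.

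The rest of the ABC family was read beside the efflux pumps. Of 41 other family genes listed, 37 were read; 0 of 30 measured changed in the HCT116 pair and 0 of 31 in the LS174T pair, with medians of 0.02 and -0.04, where 1.89% and 1.85% of all measured genes changed, so a count of 0 does not set the family apart. Between the vector arrays 5 of 30 were higher in LS174T-siVec and 1 was lower, where 6.03% of measured genes were higher and 7.33% lower. CFTR, the chloride channel of the family, was 3.63 higher, at 10.52 on LS174T-siVec and 6.89 on HCT116-Vec. That HCT116-Vec reading lay under the array median of 7.04, so expression of CFTR there is not shown. ABCB4 was 1.32 higher as read and at least 1.92-fold higher against the floor, but its LS174T-siVec reading of 6.94 lay under the array median of 7.04. ABCB8, a mitochondrial member, was 1.22 higher, and the lipid transporters ABCA3 and ABCA2 were 1.14 and 1.08 higher. TAP2, which encodes a peptide pump of antigen presentation, was lower, at 8.76 against 10.71, a difference of -1.95.

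Genes listed as regulators of the pumps, or as scaffolds that anchor them in the membrane, were read beside them. Of 23 listed regulators 18 were read. CDX1 and CDX2 were in that list, and regulation of the members by CDX1 was not tested. The fatty acid receptor gene PPARA was the 1 of 17 measured that rose on the array labelled HCT116-CDX1, at 8.93 against 7.84 on HCT116-Vec. CDX1, the gene the label names as reduced, was the 1 of 18 that fell in LS174T-siCDX1, so no other listed regulator fell there. Of all measured genes 0.916% rose in the HCT116 pair and 1.25% fell in the LS174T pair. Between the vector arrays 6 of 17 were higher in LS174T-siVec and 0 lower, against the same 6.03% and 7.33% of genes. CDX1 led by 2.24, followed by PPARA by 2.02, CDX2, the relative of CDX1, by 1.97, and the aryl hydrocarbon receptor gene AHR by 1.85. NFE2L2, which encodes the NRF2 factor of the antioxidant response, differed by 0.18 in the HCT116 pair, -0.20 in the LS174T pair and 0.20 between the vectors. Of 7 scaffold genes, 6 were measured. In either pair 0 changed, where 1.89% and 1.85% of all measured genes did, so the count does not set them apart. The membrane linkers RDX and MSN read 9.09 and 9.55 on LS174T-siCDX1 against 8.19 and 8.75 on LS174T-siVec, both under 2-fold. Between the vector arrays 4 of the 6 were lower in LS174T-siVec, against 7.33% of genes, CAV1 at -5.57, RDX at -3.50, MSN at -3.16 and EZR at -1.58. The LS174T-siVec reading of CAV1, 6.36, lay under the array median of 7.04.

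**Figure D5:**
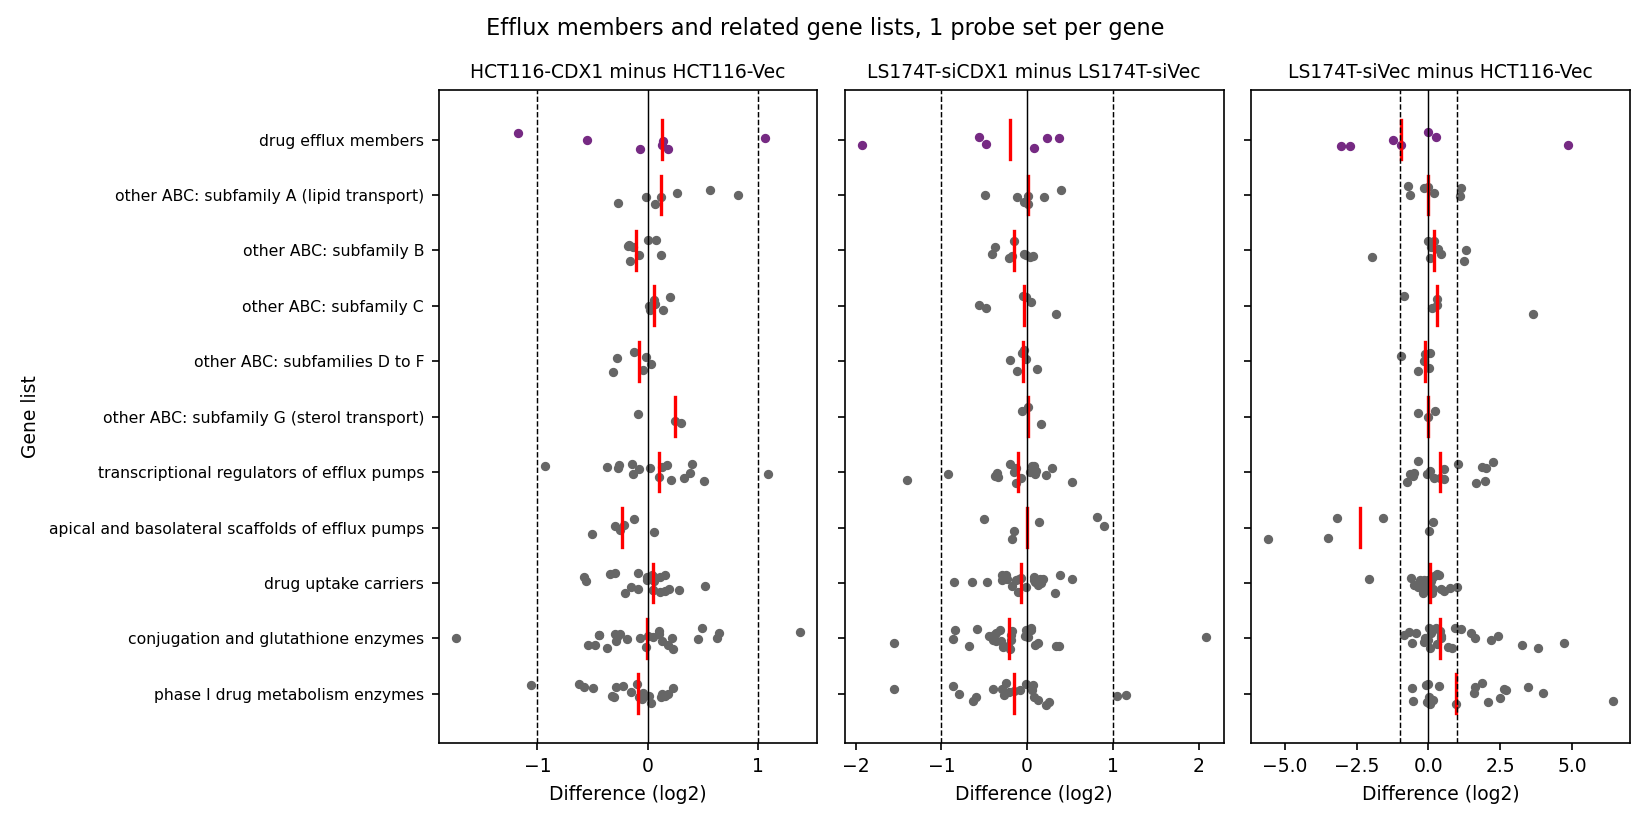
Differences in expression (log2) of the efflux members (top row) and of genes of related lists in the 3 comparisons, 1 probe set per measured gene; red bars are list medians and dashed lines mark 2-fold, and the horizontal axes differ. The other ABC subfamilies have 0 genes past 2-fold within the pairs, and ABCB1 at -1.92 is the lowest point of the LS174T pair.

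The genes most like a member in pattern were found over 17279 other genes as those with the smallest root mean square distance between the 4 levels, each centred on its own mean. For ABCB1 they were IL15, at a distance of 0.34, C9orf152 at 0.37 and PIP5K1B at 0.41. IL15, a cytokine gene, differed by -1.51 in the LS174T pair and by 0.01 in the HCT116 pair, and was 3.96 higher in LS174T-siVec than in HCT116-Vec. For ABCC2 they were STMN3 at 0.18, POPDC3 at 0.20 and TRIB2 at 0.21. STMN3 read 9.67 on the array labelled HCT116-CDX1 and 10.81 on HCT116-Vec, and 7.51 on LS174T-siCDX1 and 8.23 on LS174T-siVec. For ABCC3 they were FUT1, PELI2 and TMC4, at 0.08 each, and FUT1, a fucosyltransferase gene, read 9.53 on the array labelled HCT116-CDX1 and 8.31 on HCT116-Vec. With 4 arrays such likeness is a description only.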

How the data were processed

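RNeasy kits gave the RNA and 2 µg of it were labelled with biotin, per the labels' protocols. The authors deposited log2 levels of 54675 probe sets made with RMA, per the submitters' processing notes, which corrects background, equalises array distributions and summarises probes; no RMA version or list of the arrays processed together is stated in the labels. Values (3.20 to 14.6) were used as deposited. The platform annotation gave 41097 probe sets 1 gene, 1801 several and 11777 none, and 0 symbols changed on update through RefSeq, where 41043 of the 41097 gene IDs matched. Each of 19775 genes was read from its brightest probe set, by the mean of the 4 levels. Differences of 2 arrays had a floor of 6 and a threshold of 2-fold. limma 3.58.1 in R 4.3.3 was fitted to all probe sets and tested on simulated data. Other steps used pandas 2.3.3, numpy 2.4.6 and statsmodels 0.14.6 under Python 3.11.15. Alternatives were other floors, normalizations, fold thresholds, probe set rules and limma settings. Named genes were the members, CDX1, KRT20, and up to 4 genes with the largest change from each list and comparison. The 3 genes nearest in pattern were also named. Others named (NFE2L2, the scaffold genes in LS174T, LYZ and the other leukocyte markers) were picked with their values in view. The members, rules and gene lists were chosen with earlier results of these data known.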

Additional observations from a re-analysis of the deposited data

Results flagged for a closer look

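As read, ABCC2 ran in opposite senses by CDX1 label in the lines. It differed by -1.17 on the array labelled HCT116-CDX1 against HCT116-Vec, where the label gives more CDX1, and by -0.48 in LS174T-siCDX1 against LS174T-siVec, where it gives less. With 1 array per group the difference between the pairs was not tested. ABCC2 was read by 1 probe set, the LS174T difference was under 2-fold, and CDX1 itself differed by 0.02 in the HCT116 pair. ABCC2 read 6.61 on LS174T-siCDX1 and 7.09 on LS174T-siVec, where the array medians were 7.06 and 7.04. The reading on LS174T-siCDX1 lay under its array median and that on LS174T-siVec near it. Expression of ABCC2 in LS174T is therefore not shown, and the LS174T difference may hold no signal.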

How the results depend on the processing

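Counts of members past the threshold moved with the fold, the normalization and the choice of probe sets. In the HCT116 pair the count of probe sets was 4 at 1.5-fold, 3 with quantile normalization and with loess, where ABCC3 in 209641_s_at also passed (1.01 with quantile normalization), and 0 at 3-fold, against 2, and the count of members was 0 at 3-fold and 1 both with averaged probe sets and without probe sets named _x_at or _s_at, against 2. Over all measured probe sets of the HCT116 pair, 1428 were higher and 1934 lower at 1.5-fold, against 322 and 319 at 2-fold. At 3-fold 74 were higher and 55 lower. The counts were 341 and 283 with quantile normalization and 343 and 298 with loess. In the LS174T pair 1 probe set passed 3-fold and 3 passed 1.5-fold, against 2 at 2-fold. The count of members was 1 there under every alternative run. Over all measured probe sets of that pair, 639 were higher and 1111 lower at 1.5-fold, and 91 and 155 at 3-fold. Between the vector arrays the count of members was 3 to 5 and that of probe sets 4 to 6 under the alternatives. Over all measured probe sets 5132 were higher and 4891 lower at 1.5-fold there, and 1055 and 1181 at 3-fold. Counting the probe set shared with ABCB4, an alternative chosen after seeing the data, gave 3 in the LS174T pair and 6 between the vector arrays. For LS174T against HCT116 limma called 6 members' probe sets with each filter, normalization and moderation tried and without the CDX1 label term, and 3 to 7 with 1 array left out. Its calls over all probe sets were 3691 without LS174T-siCDX1 and 3213 without LS174T-siVec, against 6929. For the CDX1 label it called 0 of the 18 in every setting run, with 1 to 6 at an unadjusted p under 0.05. The share of all probe sets at that unadjusted p was 0.437% to 3.93% over the settings. No paired analysis was possible because the arrays carry no replicate numbers, other than pairing by cell line, which is a term of the limma fit. Leaving out an array within a pair leaves no comparison, and without an array the fit with both terms has no residual degrees of freedom.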

Other observations

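Genes listed for conjugation and glutathione were higher in LS174T-siVec wherever they were measured and differed 2-fold between the vector arrays. Of 28 conjugation and glutathione genes read, 8 of 27 measured were higher in LS174T-siVec than in HCT116-Vec and 0 were lower, where 6.03% of all measured genes were higher and 7.33% lower, led by GSTM3 at 4.70, GSTT1 at 3.82, UGT2B17 at 3.25 as read (at least 2.56-fold against the floor) and UGT2B15 at 2.41. The HCT116-Vec readings of GSTM3 (6.74), GSTT1 (6.05), UGT2B17 (4.10) and UGT2B15 (6.88) lay under the array median of 7.04. Expression of these genes there is not shown. On the array labelled HCT116-CDX1 the sulfotransferase gene SULT2B1 rose by 1.39, among 26 measured. GCLM, a subunit of the enzyme that limits glutathione synthesis, fell by 1.74 there. Of all measured genes 0.916% rose and 0.97% fell in that pair. In LS174T-siCDX1 SULT1C2 fell by 1.55 and UGT2A3 rose by 2.09 as read and at least 1.91-fold, among 28 measured. Of all measured genes 0.598% rose and 1.25% fell in the LS174T pair.

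Of 21 phase I drug metabolism genes measured, 10 were higher in LS174T-siVec and 0 lower, against the same background, led by ALDH1A1 at 6.40 as read (at least 55.5-fold), AKR1C3 at 3.97, AKR1B10 at 3.46 and AKR1C1 at 2.71. The HCT116-Vec reading of AKR1B10, 6.59, lay under the array median of 7.04, so its expression there is not shown. In LS174T-siCDX1 CYP2J2 fell by 1.55, while ALDH1A1 rose by 1.15 and CYP1B1 by 1.05, among 21 measured. Of all measured genes 0.598% rose and 1.25% fell in that pair. CYP1B1 read 5.46 on the array labelled HCT116-CDX1 and 6.52 on HCT116-Vec, a difference of -1.06 as read and at least 1.43-fold lower against the floor. It was the 1 of 20 measured phase I genes that changed in the HCT116 pair, where 1.89% of all measured genes did. Of 25 drug uptake carriers read, 22 were measured in the HCT116 pair and 23 in the LS174T pair. In either pair 0 changed, where 1.89% and 1.85% of all measured genes did, so the count does not set them apart. Between the vector arrays 1 of 23 measured differed, where 13.4% of measured genes did. It was SLCO1B3, lower in LS174T-siVec with a difference of -2.06, where its reading of 6.35 lay under the array median of 7.04.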
